A study of Mus musculus with 15 samples.

Results

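Of the 8996 NRL peaks in the deposited quantitation table, 210 were annotated by the authors to a gene whose symbol is Zfp followed by a number, and these 210 peaks belonged to 164 genes. They were taken by symbol alone, leaving out the peaks of Zfp36 and its relatives (2 in the table), which encode RNA-binding proteins of another kind. All peaks had passed the authors' peak calling, and no filter on low values was applied, so all 210 are described. Each overlapped the authors' peak list of some age, so a peak could be in the table only because it was high at that age. The symbol is that of the gene with the nearest transcription start, which does not show that NRL acts on it.

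NRL is the Maf-family basic leucine zipper transcription factor that directs retinal precursors to the rod photoreceptor fate. Its binding was measured by CUT&RUN, in which an antibody brings a nuclease to its target in permeabilised cells and the DNA cut out around it is sequenced. The title of the series names NRL occupancy over development and the role of c-Jun in early rods as its subjects. Whole retinas were taken from C57BL/6J mice on postnatal day 2 (P2), day 4 (P4), day 10 (P10) and day 28 (P28), with the same anti-NRL antibody and 250000 cells per experiment at each age. The labels list 15 libraries, and 8 of them, 2 an age, were quantified: replicates 1 and 4 for P10 and replicates 3 and 4 for the other ages. No library made with another antibody was analysed here. Whether replicates are separate animals is not in the labels, so p-values measure only the spread between these libraries, which may be technical. In whole retina a change in the number of cells that carry NRL and a change in binding per cell cannot be told apart.

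The Zfp symbol covers a large part of the mouse zinc finger gene family. Most of these genes encode proteins with arrays of C2H2 fingers, each finger folded around a zinc ion and contacting a few bases of DNA. Many also carry a KRAB domain, which recruits the corepressor TRIM28 and through it histone methylation and heterochromatin, and these genes sit in tandem clusters that arose by duplication. Several of them silence retroelements or keep imprints, while Zfp proteins without a KRAB domain include neural transcription factors, chromatin regulators, RNA-binding proteins and a ubiquitin ligase.

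Most of the Zfp peaks lay on promoters. Of the 210 peaks, 148 (70.5%, Wilson 95% interval 64.0 to 76.2) were within 1 kb of the start site, against 56.8% of all peaks in the table. Those 148 peaks belonged to 138 genes, and the remaining 62 peaks to 46 genes. The start itself was covered by 63.8% of Zfp peaks and 45.8% of all peaks, while 21.9% of Zfp peaks and 26% of all peaks lay more than 10 kb away. Of the 394 protein-coding genes named Zfp in RefSeq, 163 (41.4%) had a peak, compared with 28.6% of all 21900 protein-coding genes. These shares are given as descriptions, and the differences were not tested.

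The sequences below are the 250 bases before the start of 6 of these genes, from RefSeq promoter records of GRCm38.p6, written 5′ to 3′ on the strand of the gene. Zfp94, Zfp869 and Zfp963 are shown because their peaks were among the strongest of the family. Zfp418, Zfp961 and Zfp101 are shown because their peaks were called higher (adjusted p under 0.05) at P28 than at P2. Capitals mark TGCTGA (the core of the Maf recognition element), TAATCC (the CRX site) and CCAAT (the NF-Y site), each in either orientation. The windows are chr7:24316667-24316916, chr8:69716903-69717152 and chr8:69749963-69750212 on the minus strand for Zfp94, Zfp869 and Zfp963. They are chr7:7171103-7171352 and chr8:71950816-71951065 on the plus strand for Zfp418 and Zfp961, and chr17:33394638-33394887 on the minus strand for Zfp101.
Zfp94: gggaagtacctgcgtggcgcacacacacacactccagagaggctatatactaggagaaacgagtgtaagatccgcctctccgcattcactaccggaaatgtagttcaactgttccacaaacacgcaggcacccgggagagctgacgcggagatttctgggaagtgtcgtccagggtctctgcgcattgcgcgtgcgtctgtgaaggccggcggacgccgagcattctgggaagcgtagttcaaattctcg
Zfp869: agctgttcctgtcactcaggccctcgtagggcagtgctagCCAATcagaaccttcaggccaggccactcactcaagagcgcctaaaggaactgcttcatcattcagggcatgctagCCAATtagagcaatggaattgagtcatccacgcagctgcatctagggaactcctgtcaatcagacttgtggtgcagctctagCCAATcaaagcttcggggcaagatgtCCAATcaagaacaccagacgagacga
Zfp963: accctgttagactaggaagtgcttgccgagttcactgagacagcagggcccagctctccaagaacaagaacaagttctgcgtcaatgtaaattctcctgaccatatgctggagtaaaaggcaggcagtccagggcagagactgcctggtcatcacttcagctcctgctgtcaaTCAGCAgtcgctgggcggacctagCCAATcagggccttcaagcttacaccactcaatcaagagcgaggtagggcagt
Zfp418: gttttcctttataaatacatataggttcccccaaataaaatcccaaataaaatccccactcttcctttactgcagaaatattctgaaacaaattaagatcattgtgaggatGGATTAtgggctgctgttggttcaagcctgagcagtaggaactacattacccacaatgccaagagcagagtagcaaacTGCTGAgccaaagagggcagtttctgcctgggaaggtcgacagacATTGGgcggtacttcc
Zfp961: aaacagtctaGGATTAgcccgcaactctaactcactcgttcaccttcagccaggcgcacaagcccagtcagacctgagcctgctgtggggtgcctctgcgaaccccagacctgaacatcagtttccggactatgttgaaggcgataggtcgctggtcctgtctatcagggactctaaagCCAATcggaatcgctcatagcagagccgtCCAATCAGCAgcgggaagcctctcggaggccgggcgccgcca
Zfp101: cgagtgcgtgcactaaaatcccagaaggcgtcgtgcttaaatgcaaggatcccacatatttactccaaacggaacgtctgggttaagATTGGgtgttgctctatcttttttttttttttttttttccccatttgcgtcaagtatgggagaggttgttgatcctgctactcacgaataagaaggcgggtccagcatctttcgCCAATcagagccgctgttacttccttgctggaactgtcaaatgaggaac
Zfp94, the strongest of all, held none of these 3 motifs. Zfp869 held 4 CCAAT boxes and no TGCTGA, whereas the neighbouring Zfp963 held 1 TGCTGA, 77 bases before its start. In Zfp418 and Zfp961 a TGCTGA and a TAATCC stood in the same window. The TAATCC of Zfp961 lies outside its peak, which starts at chr8:71950884. The CCAAT site of Zfp101 that is written ATTGG also lies outside its peak, which ends at chr17:33394756. In Zfp961 the TGCTGA overlaps a CCAAT box by 1 letter, so both fall in a single run of capitals.

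Over 300-base windows, from 250 bases before the start to 50 after it, 104 windows of Zfp genes overlapped a Zfp promoter peak. TGCTGA was found in 27.9% of them (Wilson 95% interval 20.2 to 37.2), in 16.2% of the 3332 windows that overlapped a promoter peak of another gene and in 19.5% of all 32851 windows. The longer form TGCTGAC was found in 8.65%, 3.93% and 4.67% of the same 3 sets. CCAAT was present in 64.4% of Zfp windows with a peak, 51.4% of the other windows with a peak and 37.4% of all windows, and ATGGCGG (YY1) in 19.2%, 11.4% and 4.05%. Over all 399 windows of Zfp genes, with or without a peak, TGCTGA was found in 21.1%, which lies inside the interval above. There TGCTGAC was found in 6.02%, CCAAT in 47.4% and ATGGCGG in 8.77%. The shares for CCGGAAG (ETS) were 22.1%, 23.4% and 8.86%, and those for TAATCC were 8.65%, 7.02% and 7.06%. TGACTCA, the AP-1 site bound by c-Jun, stood in 3.85%, 2.94% and 5.20%, GCGCATG (NRF1) in 11.5%, 9.84% and 3.91%, and ACTACAA (ZNF143) in 8.65%, 5.94% and 3.24%. Both strands were searched. The median GC content also differed, at 54.7% in Zfp windows with a peak, 61.7% in the other windows with a peak and 52.7% in all windows, and its part in the motif shares was not tested. A match describes the letters and is not evidence of a bound site.

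Signal at the Zfp peaks was low. Values are RPKM, reads scaled to the length of the peak and to the library, rebuilt from the recovered reads. The median Zfp peak had 2.07 and 1.91 RPKM in the P2 libraries, 2.19 and 3.27 in the P4 libraries, 4.75 and 4.73 in the P10 libraries, and 3.80 and 3.79 in the P28 libraries. At the median width 3 reads correspond to 1.05 to 1.61 RPKM, and the median Zfp peak held 4 to 13 reads per library, so weak peaks are known only coarsely. Over all libraries the median of the means was 3.39 RPKM for Zfp peaks and 4.05 for all peaks. The strongest Zfp peak ranked 158 in the table, and 11 Zfp peaks were among the 1000 strongest. The libraries of P4 differed from each other, and the shallowest library, P2 replicate 4, had 49430 reads in all peaks against 227692 in the deepest, P10 replicate 4. Known NRL targets, among them Gnat1 and Pde6b of the rod phototransduction cascade, served as a check of the antibody. Of 9, 6 were called higher at P10 than at P4 and 6 at P28 than at P2. Over all peaks 15.6% and 9.64% were called in those directions. Sag and Nrl were not called in any comparison, and Nr2e3 was called lower at P28 than at P10 (-2.29, adjusted p = 0.0061). Each of the calls at P10 against P4 was lost in some fit that left out 1 library.

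**Figure D1:**
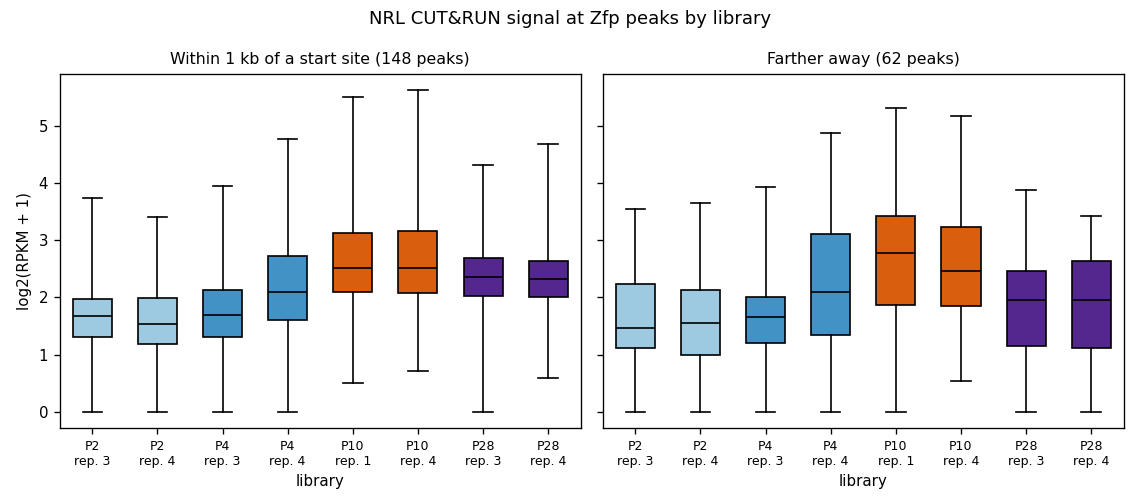
Signal at Zfp peaks in each of the 8 libraries, as log2(RPKM + 1), for the 148 peaks within 1 kb of a start site (left) and the 62 farther away (right). Boxes give the quartiles and median, whiskers the lowest and highest peak; both panels are highest in the P10 libraries.

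The 6 peaks with the highest mean were at Zfp94, Zfp395, Zfp869, Zfp963, Zfp574 and Zfp235. Zfp94, a KRAB zinc finger gene, had its peak on the start site at chr7:24316593-24316870. The signal there was 7.70 and 9.58 RPKM at P2, then 11 and 26.2 at P4, then 44.2 and 48.5 at P10, then 18.9 and 24.7 at P28. The libraries of P10 stood above all others, but neither step to or from P10 was called (adjusted p = 0.078 against P4 and 0.16 for P28 against P10). Zfp869 had 12.3 and 9.53 RPKM at P2, then 14.4 and 22.7 at P4, then 29.9 and 23.6 at P10, then 14.2 and 9.63 at P28. Zfp963, in the same cluster, had 7.57 and 7.81, 10.2 and 22.8, 26.8 and 31.3, and 14.5 and 14.4 RPKM at the same ages. No comparison called either of these neighbours.

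The authors' peak lists, 1 an age, placed most Zfp peaks at P10. Of the 210 peaks, 20 overlapped the P2 list (9.52%), 62 the P4 list (29.5%), 165 the P10 list (78.6%) and 100 the P28 list (47.6%). The shares of all peaks were 13.5%, 35.0%, 83.2% and 38.6%. There were 79 Zfp peaks in the P10 list alone, 39 in the lists of P10 and P28, 26 in the P28 list alone, and 9 in all 4 lists. Those 9 were at Zfp687, Zfp113, Zfp324, Zfp235, Zfp574, Zfp868, Zfp869, Zfp963 and Zfp516. The lists differ in length, from 1221 peaks at P2 to 7520 at P10. With each list kept to its 1221 strongest peaks, the 4 counts became 20, 27, 25 and 19. With 1 list an age these counts have no replicate check.

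**Figure D2:**
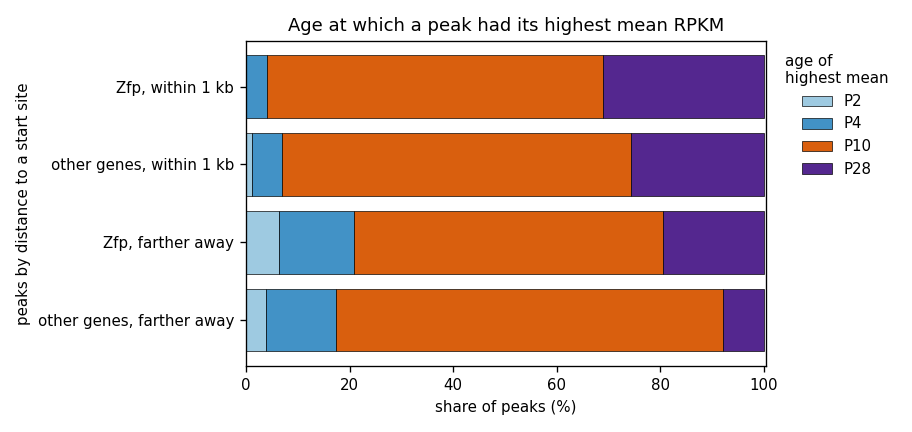
Share of peaks (%) that had their highest mean RPKM at each age, for Zfp peaks and peaks of other genes, within 1 kb of a start site or farther away. P10 took 64.9% of Zfp promoter peaks, and P28 took 31.1% of them and 19.4% of the farther Zfp peaks.

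By mean RPKM, 96 of the 148 promoter peaks (64.9%) were highest at P10, 46 (31.1%) at P28, 6 at P4 and 0 at P2. Among promoter peaks of other genes 67.4% were highest at P10 and 25.7% at P28. Of the 62 Zfp peaks farther away, 37 (59.7%) were highest at P10, 12 (19.4%) at P28, 9 at P4 and 4 at P2. Among farther peaks of other genes 74.7% were highest at P10 and 7.94% at P28. These differences were not tested, and the depth of the libraries also differed between ages. Peaks entered the table through the lists of single ages, and the part of that selection in these shares was not tested.

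Differences between ages were tested with limma on log2(RPKM + 1), adjusted over all 8996 peaks, and a peak is called where the adjusted p is under 0.05. Each difference is the later age minus the earlier one. Of the 30 Zfp peaks called at P10 against P4, 26 were in the P10 list and 5 in the P4 list. Of the 31 called at P28 against P10, 30 were in the P10 list and 3 in the P28 list. Lists and calls come from the same series, so a list is no separate support for a call. Most calls were lost in at least 1 fit that left out a single library. Such a fit keeps only 1 library of that age and has less power, so a lost call does not show that it rested on that library. The difference changed little in some, as on the Zfp637 start for P10 against P4 (1.89 to 2.01). It changed more in others, as in the Zfp536 peak at 103860 bases for P28 against P10 (-4.76 to -1.46). The 26 Zfp peaks called higher at P10 than at P4 include 3 that were called whichever of the 8 libraries was left out, a peak each of Zfp637, Zfp444 and Zfp62, and the 4 called lower include 0. For P28 against P10 that held for 4 of the 31 called lower, a peak each of Zfp831, Zfp536, Zfp62 and Zfp711. For P28 against P2 it held for 1 of the 16 called higher, at Zfp472, and for 4 of the 8 called lower, 1 at Zfp507 and 3 at Zfp608. Every other call of a Zfp peak was lost without at least 1 library, as given beside the peaks described. The matching counts over all peaks are not given here, so these do not show Zfp calls to be more or less stable than others.

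P4 against P2 gave no called Zfp peak, as it gave none over the table (0% called higher). At an unadjusted p under 0.05 there were 15 higher and 5 lower Zfp peaks of 210, and 1295 higher and 70 lower of all 8996. Limma-voom on whole reads called 1 Zfp peak, at Zfp507, lower at P4, and 10 higher and 18 lower over all peaks. The median difference was 0.37 for Zfp peaks and 0.48 for all peaks. The smallest adjusted p was 0.062, for a peak in an intron of Zfp472. That peak held 2 and 5 reads at P4 (2.13 and 6.00 RPKM), against 0 and 0 reads at P2. Set against a floor of 3 reads over the P2 libraries, that is 2.07-fold higher at P4. This value leaves out the counting error of the P4 reads and is not a lower limit.

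P10 against P4 gave 26 Zfp peaks called higher and 4 called lower, which is 12.4% and 1.9% of the 210. Over all peaks 15.6% were called higher and 1.51% lower. The median difference was 0.68 for Zfp peaks and 0.73 for all peaks. The 26 higher peaks were 13 of the promoter peaks (8.78%) and 13 of those farther away (21%), where 7.68% of the promoter peaks and 26.1% of the farther peaks of other genes were called higher. All 4 lower peaks lay farther than 1 kb from a start, or 6.45% of those, against 3.19% of the farther peaks of other genes. When libraries were centred on their medians, 4 Zfp peaks were called higher and 7 lower, where the table had 2.88% and 3.26%, and 4 of each direction were shared with the calls above. The Zfp median was then -0.03. Limma-voom called 10 Zfp peaks higher and 10 lower (4.76% each), where it called 5.15% of all peaks higher and 6.74% lower. Its Zfp median was 0.02, so the excess of higher peaks was not seen on either of these scales. The count also turned on single libraries: leaving out P10 replicate 1 gave 4, P10 replicate 4 gave 8, P4 replicate 3 gave 6 and P4 replicate 4 gave 55.

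The 6 highest called differences are given here. At Zfp384, which encodes the nuclear matrix DNA-binding protein also known as Nmp4 or CIZ, an intronic peak had 31.3 and 34.9 RPKM at P10, against 0.934 and 9.45 at P4. Both P10 libraries lay above both P4 libraries, which held 1 and 9 reads there (log2 difference 2.92, SE 0.69, adjusted p = 0.0088). The call was lost without P4 replicate 3 (difference 1.70, adjusted p = 0.16) and without P10 replicate 1 (adjusted p = 0.054), and without P4 replicate 4 the difference was 4.14. At Zfp385b a peak in the annotated 3′ UTR had 22.8 and 21.0 RPKM at P10, against 1.78 and 2.67 at P4 (2.84, SE 0.62, adjusted p = 0.0050; 0.1 without P4 replicate 3). A peak 29580 bases upstream of Zfp637, at chr6:117811327-117811600, had 14.4 and 17.3 RPKM at P10, against 1.39 and 1.56 at P4 (2.76, SE 0.49, adjusted p = 0.0012). That was the smallest adjusted p among the Zfp peaks of this comparison. It was also called higher at P28 than at P2, with 6.78 and 9.56 RPKM at P28, against 0.919 and 2.08 at P2 (adjusted p = 0.014; 0.11 without P2 replicate 3 and 0.096 without P28 replicate 4). A second Zfp637 peak, on its start, had 5.96 and 5.4 RPKM at P10, against 0.686 and 0.772 at P4, or 1 read in each P4 library (7.77-fold higher, exact 95% interval 1.81 to 70; adjusted p = 0.0064). That call was lost without either P10 library (adjusted p = 0.084 and 0.054) and without P4 replicate 3 (0.071).

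The others were at Zfp444, Zfp445 and Zfp536. Zfp444 had 17.7 and 14.4 RPKM in a peak 417 bases past its start at P10, against 1.34 and 3.01 at P4 (adjusted p = 0.0024). Zfp445, a KRAB zinc finger gene that maintains genomic imprints, had 24.4 and 21.5 RPKM in an intronic peak at P10, against 2.27 and 5.1 at P4 (2.42, SE 0.53, adjusted p = 0.0041; 0.065 without P10 replicate 1). The table held no peak within 1 kb of its start. Zfp536, which holds back neuronal differentiation induced by retinoic acid, had 29.3 and 23.2 RPKM in the stronger of its intronic peaks at P10, against 6.84 and 2.57 at P4 (2.35, SE 0.77, adjusted p = 0.042). This call was lost without any of the 4 libraries compared, at an adjusted p of 0.083 to 0.18, with libraries centred (0.29) and on values as deposited (0.23). In each of these peaks both P10 libraries stood above all 6 libraries of the other ages.

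**Figure D3:**
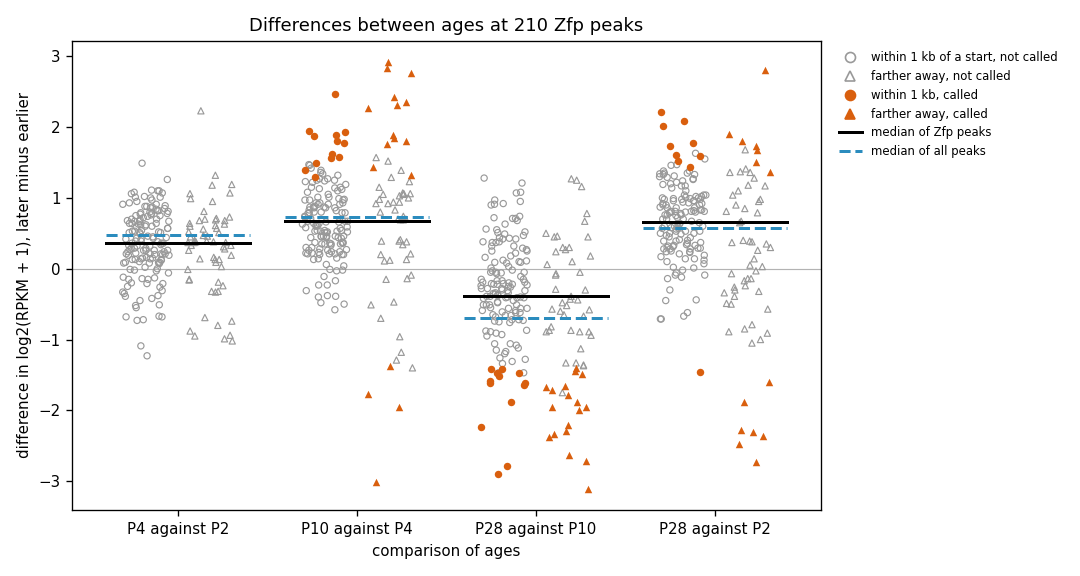
Difference in log2(RPKM + 1), later minus earlier age, for each of the 210 Zfp peaks in the 4 comparisons. Filled points were called; the solid line is the median of the Zfp peaks and the dashed line that of all peaks, which for P28 against P10 were -0.39 and -0.69.

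Peaks called lower at P10 than at P4 were 4 in number, at Zfp41, Zfp507 and Zfp608. The Zfp41 peak, 1560 bases upstream of the start, had 0 and 2.57 RPKM at P10, against 7.85 and 25.0 at P4 (-3.01, SE 0.59, adjusted p = 0.0027; 0.1 without P10 replicate 1). The peak assigned to Zfp507 lies 275206 bases upstream of that gene, and it had 0.573 and 0.454 RPKM at P10, against 3.69 and 4.67 at P4. With 1 read in each P10 library, the ratio of scaled reads was 8.20-fold lower at P10 (exact 95% interval 1.95 to 73.2, counting error only; adjusted p = 0.012). The call was lost without either P10 library (adjusted p = 0.11 each) and without P4 replicate 3 (0.075). Zfp608 contributed 2 peaks, described below.

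P28 against P10 gave 31 Zfp peaks called lower and 0 called higher by limma, where 20.7% of all peaks were called lower and 1.29% higher. At an unadjusted p under 0.05 there were 47 lower and 8 higher Zfp peaks, and 3052 lower and 271 higher of all 8996. The median difference was -0.39 for Zfp peaks and -0.69 for all peaks. Of the 31, 13 were promoter peaks and 18 lay farther away, which is 8.78% of the promoter peaks and 29.0% of the others. In other genes 8.96% of promoter peaks and 36.1% of farther peaks were called lower. For promoter peaks the median was -0.30 in Zfp genes and -0.42 in other genes, and for farther peaks it was -0.75 and -1.16. With libraries centred on their medians 13 Zfp peaks were called higher and 8 lower (4.28% and 8.56% of all peaks), and those 8 were all among the 31. Limma-voom called 34 Zfp peaks higher and 15 lower (16.2% and 7.14%), where it called 10% of all peaks higher and 10.6% lower. The Zfp median was 0.21 with libraries centred and 0.29 with limma-voom, so its sign turned with the scaling. Leaving out P10 replicate 1 gave 7 calls and P10 replicate 4 gave 8. Leaving out P28 replicate 3 or 4 gave 13 or 16, and leaving out either P4 library gave 48.

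The 8 peaks called lower both on the raw and on the centred scale were at Zfp831, Zfp536 (a pair), Zfp280d, Zfp365, Zfp62, Zfp395 and Zfp711. Zfp711, an X-linked gene mutated in human intellectual disability, had 0 and 0.499 RPKM on its promoter at P28, against 9.13 and 7.23 at P10 (-2.90, SE 0.48, adjusted p = 4.3e-04). The P28 value is a single read, and the ratio of scaled reads was 33.2-fold lower at P28 (exact 95% interval 5.62 to 1350). In Zfp395, whose human counterpart was described as binding the huntingtin gene promoter, a peak 1244 bases past the start had 3.95 and 8.35 RPKM at P28, against 38.6 and 30.6 at P10 (-2.38, SE 0.56, adjusted p = 0.0050; 0.084 without P10 replicate 1 and 0.093 without P28 replicate 3). This peak had the second highest mean of the family and was in the lists of P2, P4 and P10 and not of P28. An intronic Zfp62 peak, annotated 2952 bases upstream of a start, had 0.790 and 0.835 RPKM at P28, 1 read each, against 9.65 and 10.8 at P10, or 12.7-fold lower (exact 95% interval 3.21 to 110; adjusted p = 7.2e-04). The peak on the Zfp62 start itself was instead highest at P28. It had 4.87 and 5.66 RPKM at P28, against 1.98 and 0.598 at P2, and was called higher in that comparison (adjusted p = 0.042), though not without P2 replicate 4 (difference 1.07 in place of 1.52, adjusted p = 0.27), either P28 library (0.077 and 0.12) or either P10 library (0.058 and 0.061).

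The 4 peaks of Zfp536 were not tested against each other. All but the weakest were highest at P10 by mean and were called lower at P28 than at P10. The peak 141714 bases past the start, in an intron, had 0.216 and 1.63 RPKM at P2, then 0.653 and 1.96 at P4, then 9.46 and 9.84 at P10, then 1.06 and 0.281 at P28. It was called higher at P10 than at P4 (adjusted p = 0.0040; 0.11 without P4 replicate 3 and 0.052 without P10 replicate 1) and lower at P28 than at P10, 14.2-fold in scaled reads (exact 95% interval 5.83 to 44.8; adjusted p = 7.3e-04). The intronic peak at 103860 bases was called in the same 2 comparisons, although 1 of its P28 libraries held 0 reads and the other 9. Without the library at 0, P28 replicate 3, its difference between P28 and P10 was -1.46 in place of -3.11 and not called (adjusted p = 0.19). The peak annotated 82457 bases upstream had 8.86 and 5.95 RPKM at P2, then 2.98 and 10 at P4, then 8.62 and 6.82 at P10, then 1.21 and 1.28 at P28. With 1 read in each P28 library, it was lower at P28 than at P10 (6.12-fold, exact 95% interval 1.41 to 55.5; adjusted p = 0.012) and than at P2 (6.19-fold, 1.4 to 56.5; adjusted p = 0.023). The first of these calls was lost without either P10 library or P28 replicate 3 (adjusted p = 0.057 to 0.12), and the second without either P28 library or P2 replicate 3 (0.076 to 0.095). The last, 77824 bases upstream, ranged from 0.744 to 3.40 RPKM and was not called in any comparison.

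Zfp608 carried the most peaks of the family, 6, and they were highest at P2 or P4. Zfp608 is a paralogue of Zfp609, which works with the cohesin loader NIPBL and the Integrator complex in cortical progenitors. The peak 5061 bases upstream had 5.56 and 6.88 RPKM at P2, then 7.65 and 12 at P4, then 3.16 and 3.01 at P10, then 0 and 0.658 at P28. It was called lower in each of P10 against P4 (adjusted p = 0.047), P28 against P10 (adjusted p = 0.016) and P28 against P2 (adjusted p = 0.0016). The first of these was lost without any 1 of 6 libraries (adjusted p = 0.057 to 0.22) and the second without either P10 library or P28 replicate 3 (0.1 to 0.2). With 1 read over both P28 libraries the peak was 9.62-fold lower than at P10 (exact 95% interval 1.4 to 414) and 19.0-fold lower than at P2 (3.05 to 789). The peak 17680 bases upstream had 0.6 and 0.635 RPKM at P28, against 6.35 and 7.37 at P2, a 10.9-fold lower ratio (exact 95% interval 2.71 to 95.8; adjusted p = 0.0020). The peak 48451 bases upstream had 0.738 and 0 RPKM at P28, against 6 and 9.97 at P2, a 20-fold lower ratio from 1 read at P28 (exact 95% interval 3.22 to 827; adjusted p = 6.4e-04). These intronic peaks were thus highest in the P2 libraries, and the one nearest the start in the P4 libraries. A peak 526956 bases upstream was called lower at P10 than at P4, with 0.808 and 1.28 RPKM at P10, against 5.86 and 8.06 at P4, a 6.43-fold lower ratio (exact 95% interval 1.91 to 33.8; adjusted p = 0.0086), which was lost without either P10 library (0.12 and 0.052) or P4 replicate 3 (0.067). The peaks on the start of Zfp608 and 66907 bases past it were not called. On the start the libraries ranged from 1.14 to 5.49 RPKM.

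**Figure D4:**
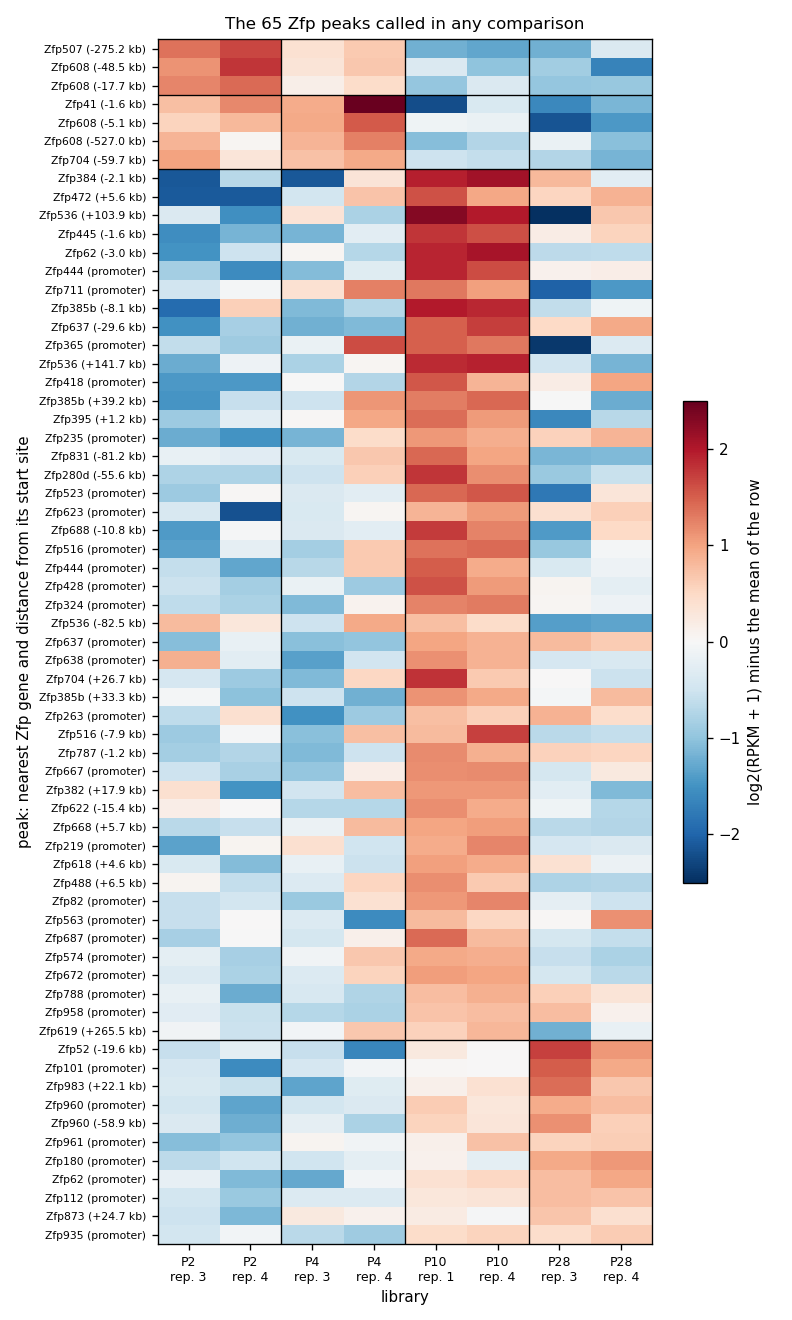
The 65 Zfp peaks called in any comparison, in each of the 8 libraries, as log2(RPKM + 1) minus the mean of the row, sorted by the age of the highest mean. The top 7 rows were highest at P2 or P4, the lowest 11 at P28 and the rest at P10; row names give the nearest Zfp gene and the distance from its start.

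P28 against P2, the widest span, gave 16 Zfp peaks called higher and 8 called lower, where 9.64% and 3% of all peaks were called. The median difference was 0.66 for Zfp peaks and 0.57 for all peaks. Promoters held 9 of the higher peaks and 1 of the lower, or 6.08% and 0.676% of the promoter peaks, where 7.89% and 0.383% of the promoter peaks of other genes were called. Positions farther away held 7 of each, or 11.3%, where 12% of the farther peaks of other genes were called higher and 6.35% lower. With libraries centred 3 were called higher and 12 lower (3.27% and 7.26% of all peaks), of which 3 and 8 were shared with the calls above, and the Zfp median was 0.08. Limma-voom called 4 Zfp peaks higher and 11 lower (1.9% and 5.24%), and 2.86% and 7.27% of all peaks. The count was 11 without P28 replicate 3, 14 without P28 replicate 4, 43 without P4 replicate 3 and 42 without P4 replicate 4.

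The 3 peaks called higher on both scales were at Zfp472, Zfp101 and Zfp235. The Zfp472 intronic peak had 5.21 and 6.88 RPKM at P28, 4 and 5 reads, against 0 in both P2 libraries. Set against a floor of 3 reads over the P2 libraries, that is 3.15-fold higher, which is not a lower limit (limma, adjusted p = 7.5e-04). Limma-voom called 0 of the farther Zfp peaks higher in this comparison, so it did not call this peak. Zfp101 had 7.42 and 4.71 RPKM on its start at P28, against 1.21 and 0 at P2, a ratio of scaled reads of 8.4 (exact 95% interval 2.55 to 43.6; adjusted p = 0.0039; 0.06 without P2 replicate 4). The P10 libraries of Zfp101 had 2.01 and 1.99 RPKM, below both P28 libraries. This peak was in the P28 list alone and so entered the table through P28, which is no separate support for the call. Zfp235, a KRAB zinc finger gene, had 18.2 and 22.3 RPKM on its start at P28, against 4.43 and 3.57 at P2 (2.08, SE 0.57, adjusted p = 0.019), and lost the call without either P28 library or P2 replicate 4 (0.061 to 0.1). Unlike Zfp101 it was already high at P10, at 26.3 and 23.1 RPKM. Zfp418 had 2.05 and 4.33 RPKM on its start at P28 and 0 reads in both P2 libraries (adjusted p = 0.0073). Set against the same floor of 3 reads, that is 3.15-fold higher, again not a lower limit. Zfp418 was not called with libraries centred (adjusted p = 0.11). Nor was it called without P28 replicate 4, where the difference was 1.61 in place of 2.01.

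**Figure D5:**
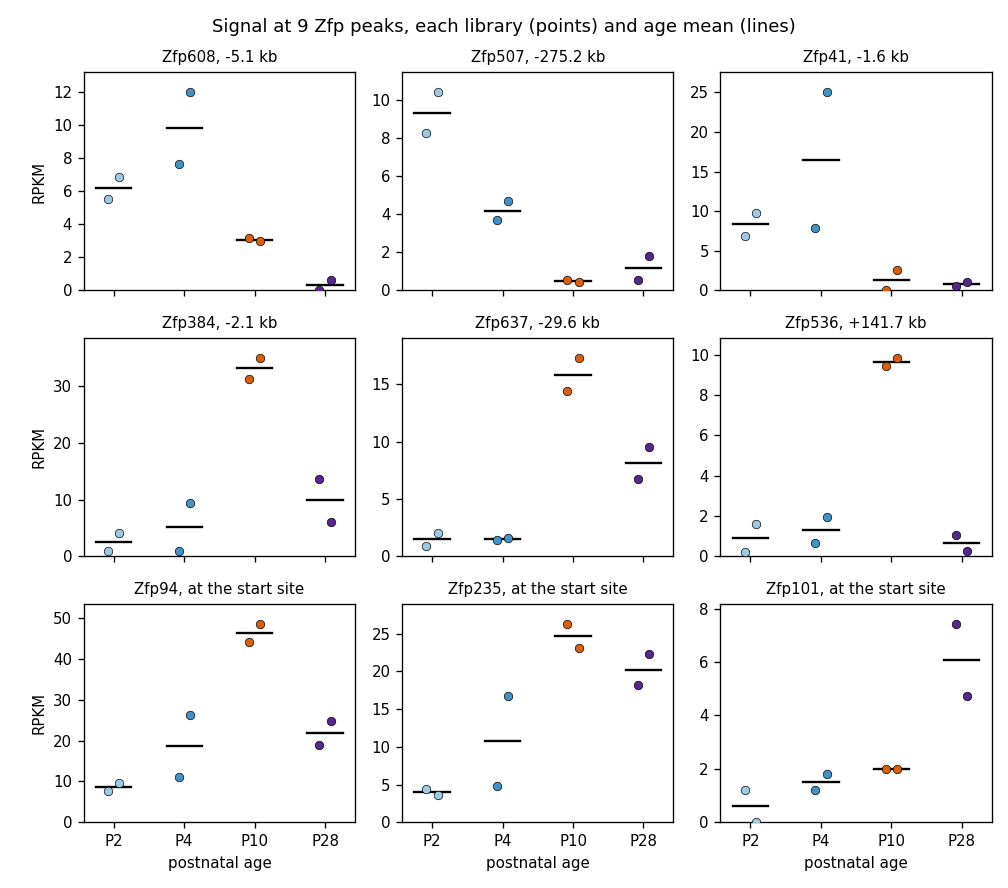
RPKM at 9 Zfp peaks against postnatal age, with each library as a point and the age mean as a line, each panel starting at 0. The upper row was highest at P2 or P4, the middle row at P10, and of the lower row Zfp94 and Zfp235 were highest at P10 and Zfp101 at P28.

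By known role, Zfp513, which is mutated in a human recessive retinitis pigmentosa, was the only gene of 5 in the eye list with a peak. It had 8.54 and 4.01 RPKM on its promoter at P28, against 19 and 14.3 at P10, and the difference was not called (-1.34, SE 0.56, adjusted p = 0.088). Of 10 genes for imprinting and retroelement silencing, 5 had a peak, at Zfp445, Zfp809, Zfp568, Zfp708 and Zfp961. Zfp445 was called higher at P10 than at P4, and Zfp445 and Zfp961 were called higher at P28 than at P2, where 15.6% and 9.64% of all peaks were called in those directions. With 5 genes nothing is read from these counts. Zfp961 had 5.53 and 5.85 RPKM on its promoter at P28, against 1.12 and 1.27 at P2 (1.61, SE 0.47, adjusted p = 0.025). Both calls at P28 against P2 were lost without any 1 of the 4 libraries compared (adjusted p = 0.079 to 0.17), and that of Zfp445 also without either P10 library. Zfp809, which silences murine leukaemia virus, had 7.36 and 4.05 RPKM at P28 and 3.11 and 0.362 at P2, and was not called.

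Of 13 neural genes 8 had a peak. By the strongest peak of each, 4 of the 8 were called lower at P28 than at P10, 2 lower at P28 than at P2, and 1 higher at P10 than at P4. Over all peaks the shares in those directions were 20.7%, 3% and 15.6%. The 4 were Zfp536, Zfp711, Zfp365, which binds DISC1, and Zfp488, an oligodendrocyte factor that acts with Olig2. The peaks of Zfp536 and Zfp488 are farther peaks, and those of Zfp711 and Zfp365 promoter peaks. In other genes 36.1% of farther peaks and 8.96% of promoter peaks were called lower at P28 than at P10. With libraries centred, Zfp711 and Zfp365 stayed called, whereas Zfp536 (limma, adjusted p = 0.064) and Zfp488 did not. With 8 genes nothing is read from these counts. Zfp365 had 0 and 3.24 RPKM on its start at P28, against 14 and 12.4 at P10 (adjusted p = 0.0052). Without P28 replicate 3 the difference was -1.74 in place of -2.78 and not called (adjusted p = 0.096), nor was it called with limma-voom (0.052) or on values as deposited (0.099). With 2 reads over the P28 libraries, that was 8.31-fold lower in scaled reads (exact 95% interval 2.01 to 73.6). A second Zfp365 peak, 16512 bases upstream, went the other way, with 5.42 and 5.72 RPKM at P28 and 1.1 and 2.62 at P10, and was called higher with libraries centred (1.85, adjusted p = 0.035) and not on the raw scale. The Zfp488 call was lost without any 1 of the 4 libraries compared (adjusted p = 0.054 to 0.17). The 2 lower at P28 than at P2 were Zfp711 and Zfp704. In the intron of Zfp704 the peak had 2.51 and 1.59 RPKM at P28, against 10.6 and 6.18 at P2 (-1.60, SE 0.50, adjusted p = 0.038). That call was lost without any 1 of 5 libraries (adjusted p = 0.075 to 0.22), and that of Zfp711 at P28 against P2 without any 1 of 6 (0.052 to 0.28). A weaker Zfp704 peak, 26659 bases past the start, was called lower at P28 than at P10 (-1.49, adjusted p = 0.049; difference -0.92 and adjusted p = 0.43 without P10 replicate 1). Zfp521, Zfp462 and Zfp24 were not called in any comparison.

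Of 15 promoter and chromatin regulators 7 had a peak, at Zfp281, Zfp384, Zfp687, Zfp217, Zfp292, Zfp609 and Zfp263. By the strongest peak of each, Zfp384 alone was called, higher in P10 against P4, where 15.6% of all peaks were called higher. With 7 genes nothing is read from this count. Among their weaker peaks, that of Zfp263 386 bases upstream was called higher at P10 than at P4 (1.89, adjusted p = 0.013) and that of Zfp687 717 bases upstream lower at P28 than at P10 (-1.61, adjusted p = 0.021). The Zfp263 peak held 3 reads at P4 (5.87-fold, exact 95% interval 1.7 to 31.3), and both calls were lost when single libraries were left out (highest adjusted p = 0.13 and 0.22). Zfp281, a pluripotency factor, was strongest 61492 bases upstream of its start, where the P10 libraries had 10.8 and 20.7 RPKM and the P4 libraries 2.18 and 8.16. Of 17 genes for RNA, ribosome, protein turnover and mitosis 9 had a peak, among them Zfp207 of the mitotic spindle, Zfp326 of the splicing machinery, the ubiquitin ligase Zfp91 and the ribosome assembly factor Zfp622. None of the 9 was called by its strongest peak, but a weaker peak was called in Zfp638 and in Zfp622. Over all peaks 15.6% were called higher at P10 than at P4 and 20.7% lower at P28 than at P10. With 9 genes nothing is read from these counts. The Zfp638 peak 639 bases past the start had 4.72 and 3.74 RPKM at P10, against 0 and 0.855 at P4 (1.93, adjusted p = 0.0097; 10.4-fold from 1 read at P4, exact 95% interval 1.47 to 450). It was lower at P28 than at P10 (-1.41, adjusted p = 0.039; 4.37-fold from 2 reads at P28, interval 0.932 to 41.1). The Zfp622 peak 15377 bases upstream had 2.67 and 2.11 RPKM at P10, against 0 in both P4 libraries (adjusted p = 0.0095). Set against a floor of 3 reads over the P4 libraries, that is 3.45-fold higher, which is not a lower limit. At P28 the Zfp622 peak had 0.525 and 0 RPKM (adjusted p = 0.021, 8.75-fold lower from 1 read, interval 1.24 to 380). Each of these 4 calls was lost when single libraries were left out (highest adjusted p = 0.15 to 0.25). Zfp207 stayed between 1.56 and 4.77 RPKM in all 8 libraries.

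Genes of the KRAB corepressor and heterochromatin machinery had a peak in 14 of 29. By limma, 2 were called higher at P10 than at P4, 2 lower at P28 than at P10 and 1 lower at P28 than at P2, where 15.6%, 20.7% and 3% of all peaks were called. With 14 genes nothing is read from these counts. Dnmt3a, a DNA methyltransferase, had 14.4 and 15.4 RPKM at P10, against 0 and 8.44 at P4 (2.37, SE 0.72, adjusted p = 0.031; difference 0.75 and adjusted p = 0.43 without P4 replicate 3), and Chd4, of the NuRD complex, had 5.89 and 4.66 at P10, against 0.730 and 0.821 at P4 (adjusted p = 0.017). Smarcad1, a chromatin remodeller, had 0.738 and 0.780 RPKM at P28, 1 read in each library, against 9.75 and 13.1 at P10. That was 15.3-fold lower (exact 95% interval 3.93 to 131, adjusted p = 7.0e-04), and this call held whichever library was left out. Smarcad1 was also the 1 called lower at P28 than at P2 (6.66-fold, interval 1.53 to 60.4, adjusted p = 0.021), a call lost when single libraries were left out. Suv39h1, a histone H3 lysine methyltransferase, had 2.08 and 3.30 RPKM at P28, against 8.46 and 10.3 at P10 (adjusted p = 0.023). The calls of Chd4 and Suv39h1 were lost when single libraries were left out (highest adjusted p = 0.16 and 0.19).

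Clustered Zfp genes, taken as runs of at least 4 protein-coding Zfp genes with gaps of at most 500 kb in RefSeq GRCm38.p6, numbered 202 in 22 clusters. A peak was present at 76 of them (37.6%), against 87 of the 192 Zfp genes outside clusters (45.3%). In clusters 72 of 85 peaks were on promoters (84.7%), against 76 of 125 outside (60.8%). Cluster peaks were called higher 8 times and lower 0 times at P10 against P4, 0 and 8 times at P28 against P10, and 10 and 0 times at P28 against P2. The peaks outside clusters were called 18 and 4, 0 and 23, and 6 and 8 times in the same comparisons. Over all peaks 15.6% were called higher and 1.51% lower at P10 against P4, 1.29% and 20.7% at P28 against P10, and 9.64% and 3% at P28 against P2. All 8 Zfp peaks called lower at P28 than at P2 were thus outside clusters. Of these 8, 7 lay farther than 1 kb from a start, where clusters held 13 peaks and the other genes 49, and several belonged to Zfp608. The difference between the groups was not tested, and the part of peak position in it was not tested either.

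Clusters differed among themselves. All 6 genes of the cluster at chr8:69209018-69774911, among them Zfp869 and Zfp963, had a promoter peak. In the 15-gene cluster at chr7:29768552-30169775, 10 genes had a peak, and in the 14-gene cluster at chr7:24081877-25227876, which holds Zfp94 and Zfp235, 7 did. The cluster of 16 genes at chr4:145510759-147849126 had 0 peaks. Copies within a cluster can be near-identical, the sources used here do not give how reads that map to several copies were treated, and its part in these counts was not tested. At 8 of the 148 promoter peaks another protein-coding gene started within 1 kb, for example Mrpl50 beside Zfp189 and Cggbp1 beside Zfp654, and there the signal cannot be given to either gene.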

How the data were processed

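Anti-NRL CUT&RUN was done on retinal cells with 10 pg of heterologous spike-in DNA, per the labels' protocols. Per the submitters' processing notes, MACS2 2.2.5, Bowtie2 2.3.5.1, bedtools 2.29.0, Picard 2.20.8, Trimmomatic 0.38, SAMtools 1.9 and the build GRCm38.p6 were used, with no role or order. The sources used here do not give how the spike-in served or which libraries made each list. The deposited table holds RPKM, as its values show, for 8996 peaks and 8 libraries; the other 7 of 15 labelled libraries were not analysed here. Each deposited column is whole reads divided by a width and a library scale. In each further column the width came from a peak 39 rows earlier, so reads were recovered (100% of values within 0.001 of a whole number) and the RPKM rebuilt with each peak's own width. The signal and score in the deposited lists of each age are the authors' and only ranked peaks within a list; peak place, distance and symbol are the authors' annotation.

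log2(RPKM + 1) was tested with limma (3.58.1, R 4.3.3) in a single fit of age over the 8 libraries, using a mean trend and robust moderation, unfiltered, with Benjamini-Hochberg adjustment over the 8996 peaks. The pseudocount makes differences of weak peaks too small. Where an age had 3 reads or fewer, the text gives the ratio of scaled reads and its exact 95% interval. Where it had 0, a floor of 3 reads took its place, and that ratio is not a lower limit because the other age's counting error is left out. Intervals cover counting error only. The script was tested on simulated data. Other tools were Matplotlib 3.10.9, SciPy 1.17.1, pandas 2.3.3, NumPy 2.4.6 and Python 3.11.15.

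Named peaks are, for each comparison, the 6 highest and 6 lowest called; the 6 highest means; the strongest peak of each member of the role lists; the 6 strongest more than 10 kb away; and the 6 genes with the highest summed mean among those with several peaks. Zfp113, Zfp324, Zfp868, Zfp831, Zfp280d, Zfp189, Zfp654 the start peaks of Zfp62 and Zfp637 and the weaker called peaks of Zfp263, Zfp365, Zfp622, Zfp638, Zfp687 and Zfp704 were named after their values were seen. The members and lists were chosen with earlier results of these data known. Of 164 genes with a peak, 131 were in the RefSeq promoter table; the planned count of finger and KRAB domains was not done, since no protein table was used here. 1 gene of the planned check of the antibody is not reported here.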

Additional observations from a re-analysis of the deposited data

How the results depend on the processing

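P4 against P2, with 0 calls, gave 1 with pseudocount 0.1, with peaks of mean 3 RPKM or more, with limma-voom and with the replicate block, and 0 to 6 when single libraries were left out. P10 against P4, with 30, gave 0 with pseudocount 0.1, 11 centred, 11 on values as deposited, 3 with the replicate block and 4 to 55 leaving out libraries. P28 against P10, with 31, gave 6 with pseudocount 0.1, 11 as deposited, 49 with limma-voom, 4 with the replicate block and 7 to 48 leaving out libraries. P28 against P2, with 24, gave 8 with pseudocount 0.1, 15 centred, 12 as deposited, 15 with limma-voom and 11 to 43 leaving out libraries; the block gave 19. Median differences reversed to -0.10 (centred) and -0.18 (limma-voom) for P4 against P2, -0.03 (centred) for P10 against P4, and 0.21 (centred) and 0.29 (limma-voom) for P28 against P10. Kept to their strongest 1221 peaks, the lists of P4, P10 and P28 held 27, 25 and 19 Zfp peaks. Correlations of same-numbered libraries, after taking off the age mean, were -0.013 to 0.085. With 2 libraries an age the deviations mirror each other and reads per peak are few, so this check cannot exclude pairing by replicate number. Of the 28 called comparisons of peaks named for the size of their change, 19 lost the call with pseudocount 0.1, 14 as deposited, 10 with the block and 6 centred, and none reversed; 10 were called whichever library was left out. The centred values change only the scaling; the cause of the other losses was not tested. The median Zfp peak held 4 to 13 reads per library, so single values are coarse.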
